A study of Homo sapiens with 6 samples.

Results

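The genes of the translation initiation, elongation and termination factors were examined in COV434 cells, an established human line that the labels call granulosa cells (GCs), with and without 4-hydroxycyclophosphamide (4HC), the active metabolite of cyclophosphamide (CTX). Members were the coding genes whose symbols begin with EIF1 to EIF6 or with EEF1 or EEF2, together with ETF1, GSPT1 and GSPT2, and the kinases whose symbols begin with EIF2AK were left out. The rule used names and no measured value. It took 69 of the 16798 genes in the deposited table, of which 49 were assigned to initiation, 17 to elongation and 3 to termination, and 63 carried a Gene Ontology term with the word translation. Total RNA was sequenced from 6 samples, 3 controls and 3 labelled CTX, which are called 4HC here, and the treatment protocol gives 15 µM 4HC for 24 h. No genotype other than that of the line was described. All 6 samples came from this 1 line, and the labels do not say whether the samples of a group were separate cultures, so the p-values measure only the spread between these samples.

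Translation begins when eIF2, carrying GTP and the initiator tRNA, joins the small ribosomal subunit with eIF1, eIF1A, eIF3 and eIF5. The cap-binding complex eIF4F, made of eIF4E, the scaffold eIF4G and the helicase eIF4A, brings this subunit to the mRNA, and the 4E-BP proteins block eIF4E from binding eIF4G. The elongation factor eEF1A delivers aminoacyl-tRNA, its exchange factor eEF1B recharges it with GTP, eEF2 moves the ribosome along, eIF5A relieves stalls, and eRF1 and eRF3 release the finished chain.

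Each sample held between 16133786 and 16702316 expected counts (estimated reads per gene), and the members took 4.32% to 4.38% of them. The label of the line was compared with its markers. Of 14 granulosa cell markers, 12 were in the table and 3 reached 1 TPM (a transcript level scaled to length and depth) in the controls, namely HSD17B1 at 22.5, AMH at 5.34 and INHA at 1.18. FOXL2 was listed at 0 in all 3 controls, and FSHR, CYP19A1, NR5A1 and GATA4 had means below 0.05 TPM, so the defining markers of granulosa cells were absent or nearly so. Summed markers of fibroblasts were 11.9 to 13.4 TPM in control and 11.6 to 13.2 in 4HC, and those of epithelial cells 6.36 to 8.57 and 7.72 to 8.16. Most of each sum came from 1 gene, DCN (mean of 11.5 TPM in control) and KRT8 (6.35 TPM). The other members of both lists had control means below 1 TPM. Immune markers summed to 2.28 to 2.42 TPM in control and 2.38 to 3.25 in 4HC, and endothelial markers to at most 0.06 TPM in any sample.

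Many translation factor genes were lower in 4HC by a small amount. By class, 21 of 46 initiation genes were called lower (45.7%), 5 of 16 elongation genes (31.2%) and 2 of 3 termination genes. The median log2 fold changes of these classes were -0.077, -0.118 and -0.234 in that order, and the difference between the classes was not tested. The termination median is the value of GSPT2, which had at most 16 counts in any sample and was not called. Of the 17 elongation members, 9 carried the Gene Ontology term for elongation factor activity. The elongation genes called lower were EIF5A, EEF1E1 and the methyltransferase genes EEF1AKMT2, EEF1AKMT3 and EEF2KMT. The 6 eEF1 genes had a median of 0.048 and the 6 methyltransferase genes one of -0.187. Of the elongation genes with the highest levels per length, EEF1A1, EEF1G and EEF2 were not called lower and EIF5A, the next, was. Of the 69 members 65 had enough counts for a test, and 28 of these were called lower and 4 higher at an adjusted p-value under 0.05 in edgeR's quasi-likelihood test. Together 32 members were called (49.2%), against 36.4% of the 12368 genes tested. The share called lower was 43.1%, against 17.1% of all genes, and the share called higher was 6.15%, against 19.2%. Highly expressed genes were called lower more often in general, and of the 2344 genes with a mean of at least 100 CPM (counts scaled to library size, with TMM normalization) in either group, 38.2% were lower and 18.4% higher. Above that level, which was chosen after the values were seen, 24 of 42 members were lower (57.1%) and 3 were higher (7.14%). The median log2 fold change was -0.10 for these 42 members and -0.05 for all 2344 genes.

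The changes were narrow. The log2 fold changes of the 65 members ran from -0.33 to 0.60 with a median of -0.09, and 45 were below 0. None reached a fold change of at least 2 with an unadjusted p-value under 0.05, which 1.15% of all genes did (142). The samples of the groups did not overlap in 37 of the 65 members (56.9%), against 45.3% of all genes. At 100 CPM or more these shares were nearer, 69.0% of members and 63.3% of all genes. The members without a test were EIF1AY, EIF4E1B, EIF4EBP3 and EIF5AL1, none of which had more than 9 counts in any sample. CPM and TPM are shares of the total of a sample. In bulk RNA, fewer transcripts per cell, a change in the mixture of cells and a shift in other genes or in total RNA cannot be told apart.

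**Figure D1:**
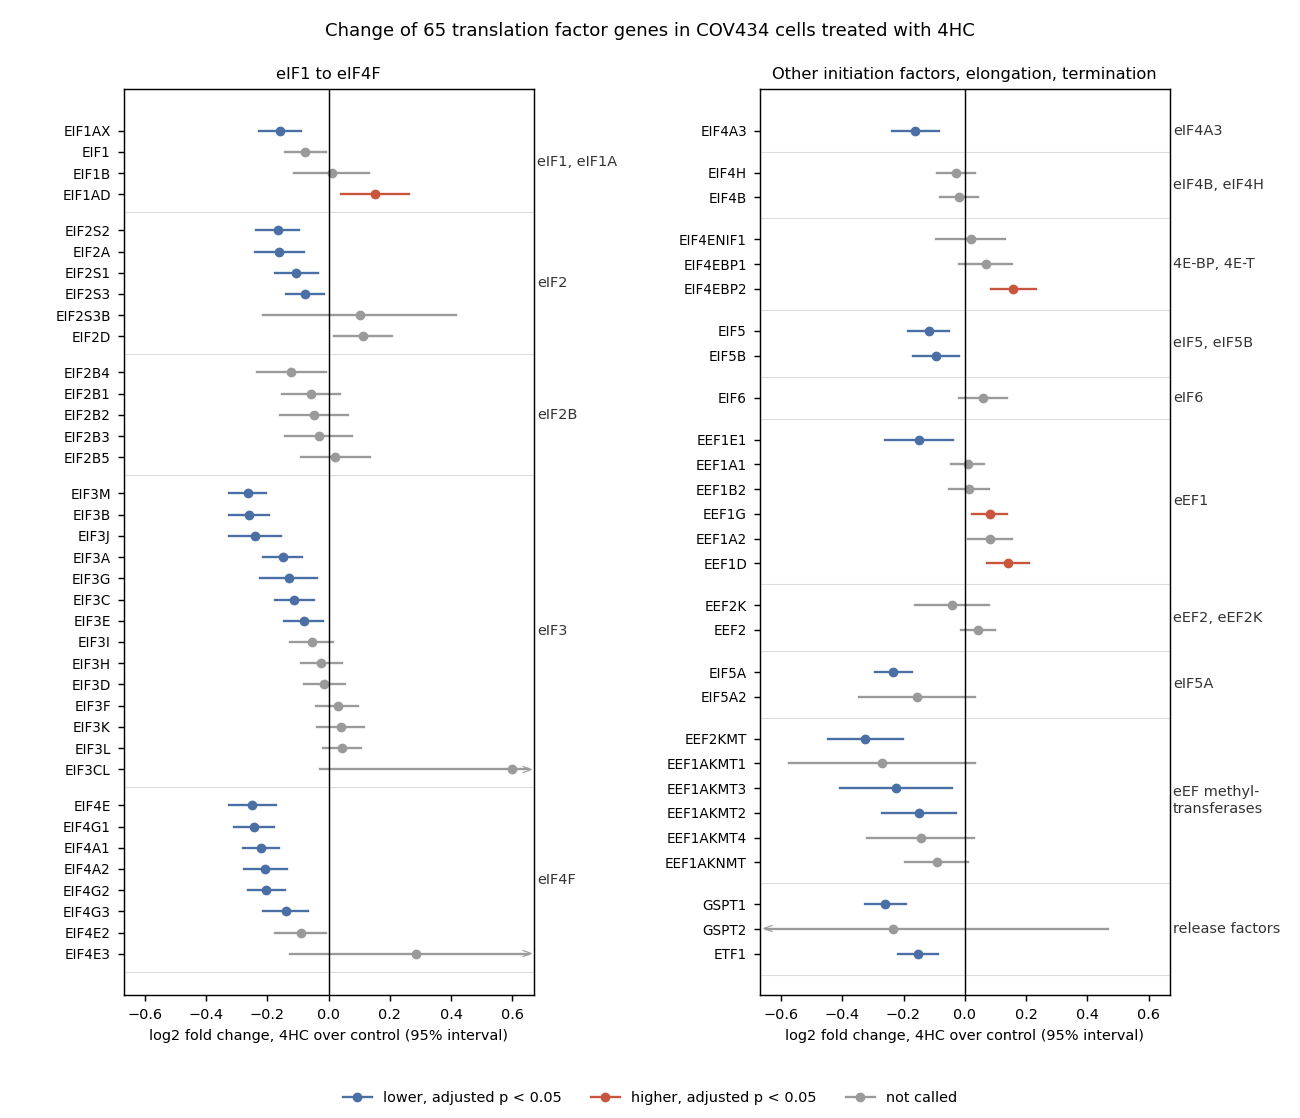
Log2 fold change of the 65 tested members, 4HC over control, with 95% intervals from edgeR, grouped by complex. Blue marks 28 genes called lower, red marks 4 called higher and grey the other 33, and arrowheads mark intervals that run past the axis. The eIF4F group, which includes EIF4G2, lies to the left of 0 apart from EIF4E3, and the 5 eIF2B genes are grey.

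The eIF4F group was taken here with the relatives EIF4E2, EIF4E3 and EIF4G2. In this group 6 of the 8 tested genes fell and none rose, and the median of the 8 log2 fold changes was -0.21. The share that fell was 75.0%, against 17.1% of all genes and 38.2% of those with at least 100 CPM. EIF4E, which binds the mRNA cap, measured 169, 169 and 173 CPM in the control samples and 138, 143 and 149 CPM in 4HC. It fell by 15.8%, with a log2 fold change of -0.25 (standard error 0.038, edgeR adjusted p = 4.19e-07). EIF4G1, the main scaffold, measured 656, 695 and 665 CPM in control and 592, 554 and 556 CPM in 4HC. Its log2 fold change was -0.25 (standard error 0.032, edgeR adjusted p = 1.43e-08). For these genes every 4HC sample lay below every control.

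The helicase genes of eIF4F fell by similar proportions. EIF4A1 measured 992, 1018 and 1013 CPM in control and 881, 862 and 852 CPM in 4HC, and its log2 fold change was -0.22 (standard error 0.030, edgeR adjusted p = 2.59e-08). Its paralog EIF4A2 measured 276, 268 and 269 CPM in control and 223, 236 and 246 CPM in 4HC, with a log2 fold change of -0.21 (standard error 0.036, edgeR adjusted p = 5.18e-06). Neither gene had overlapping groups, and the ratio of EIF4A1 to EIF4A2 in TPM was 4.04 ± 0.117 (SD, n = 3) in control and 4.01 ± 0.273 in 4HC. EIF4G2, an eIF4G relative that does not bind eIF4E, measured 1202, 1154 and 1188 CPM in control and 1003, 1046 and 1029 CPM in 4HC. Its log2 fold change was -0.20 (standard error 0.030, edgeR adjusted p = 1.69e-07). EIF4G3, the second full scaffold, fell less, with a log2 fold change of -0.14 (standard error 0.037, edgeR adjusted p = 0.00226), and its call was lost with limma on log2(FPKM + 1), at an adjusted p of 0.0609. The cap-binding paralogs were not called. EIF4E2 went from 103 to 96.4 CPM, and EIF4E3 had at most 3.12 CPM in any sample.

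**Figure D2:**
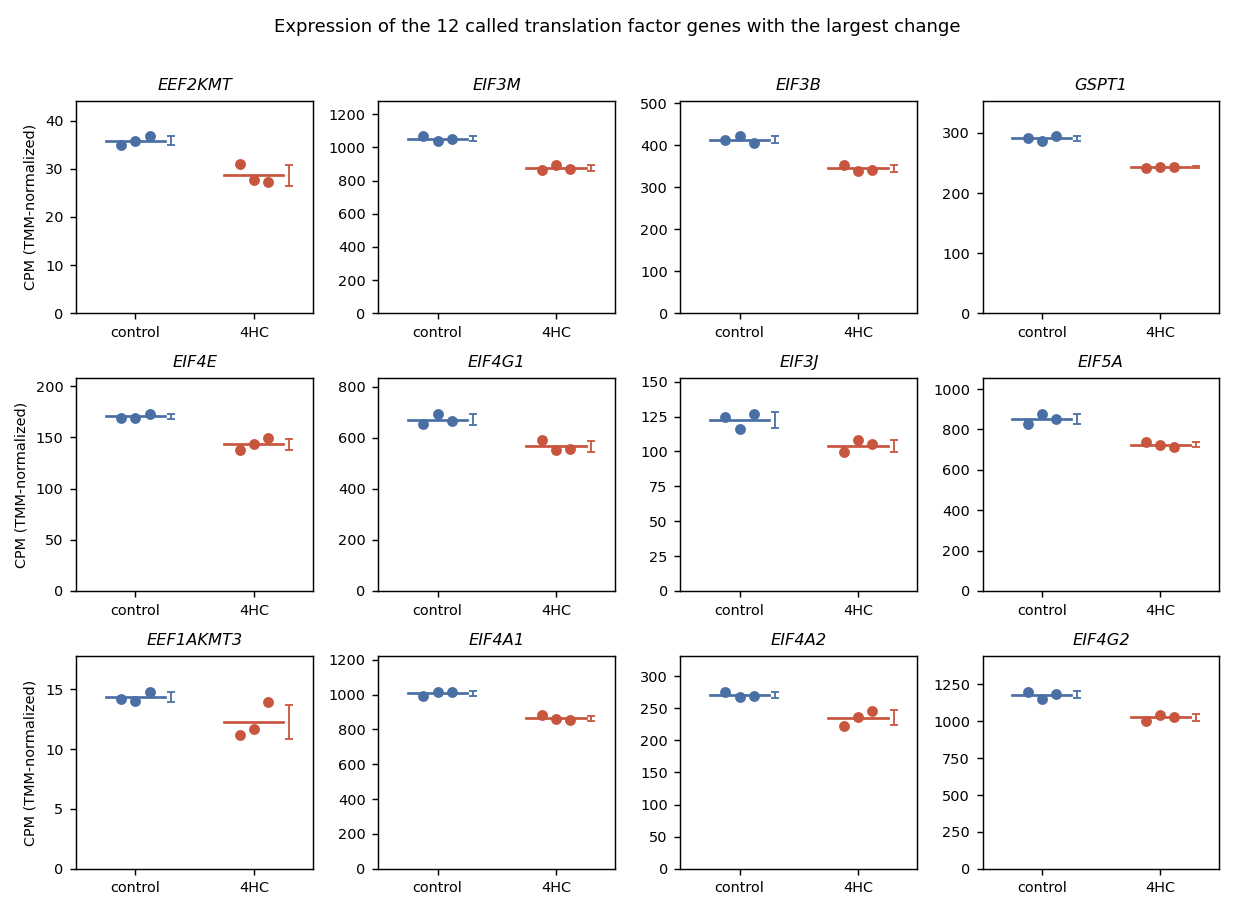
TMM-normalized CPM of the 12 called members with the largest absolute log2 fold change, at least 5 CPM and no overlap between groups, on axes that start at 0. Each point is 1 sample, horizontal lines are means, and bars beside them show 1 SD (n = 3). All 12 fell, and EEF1AKMT3 has a 4HC sample at 13.9 CPM, close to the lowest control at 14 CPM.

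None of the 3 tested genes whose products bind eIF4E as inhibitors or carriers was called lower. EIF4EBP2, a 4E-BP gene, measured 165, 174 and 164 CPM in control and 190, 187 and 185 CPM in 4HC. It rose by 11.6%, with a log2 fold change of 0.16 (standard error 0.037, edgeR adjusted p = 0.000456). EIF4EBP1 measured 79.8, 77.4 and 80.1 CPM in control and 82.8, 83.5 and 82.4 CPM in 4HC, and its log2 fold change of 0.07 (standard error 0.044) was not called (edgeR adjusted p = 0.229). The groups of EIF4EBP1 did not overlap, although the difference was 4.82%. EIF4ENIF1, which carries eIF4E into the nucleus, had 37.6 ± 0.771 CPM in control and 38.1 ± 1.19 in 4HC (n = 3, SD). The helicase cofactor genes EIF4B and EIF4H had log2 fold changes of -0.02 and -0.03 and were not called, and that of EIF4B was 0.003 with library size as the only scaling and 0.002 on the FPKM scale. EIF4A3, an eIF4A relative that belongs to the exon junction complex and not to eIF4F, fell from 149 ± 2.39 to 133 ± 3.69 CPM (edgeR adjusted p = 0.000598).

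Promoter windows of RefSeq on GRCh38.p14, from 250 bases before to 50 bases after the annotated start, were searched for CACGTG, the E-box hexamer that MYC family factors bind. The hexamer reads the same on both strands. It was present in 13 of the 75 windows of members (17.3%), which belonged to the 56 members that matched a symbol, and in 7.26% of all 35116 windows in the table. Of the 12 tested members with it 3 were lower (EIF4E, EIF4G1 and EIF4A3) and none higher, and of the 40 tested members without it 19 were lower and 3 higher. Their median log2 fold changes were -0.04 and -0.09. The stretches around the hexamers of these 3 genes, of which EIF4E and EIF4G1 belong to eIF4F, are shown because they were the genes with the hexamer that fell. Capitals mark CACGTG, the strand is that of the gene, and the stretches lie upstream of the start at chr4:98929170-98929383 (minus strand), chr3:184314432-184314574 (plus strand) and chr17:80147214-80147279 (minus strand).
EIF4E: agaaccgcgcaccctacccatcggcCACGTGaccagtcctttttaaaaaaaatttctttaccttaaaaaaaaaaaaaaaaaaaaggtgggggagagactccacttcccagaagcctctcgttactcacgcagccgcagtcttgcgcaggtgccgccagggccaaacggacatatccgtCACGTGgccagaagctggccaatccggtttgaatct
EIF4G1: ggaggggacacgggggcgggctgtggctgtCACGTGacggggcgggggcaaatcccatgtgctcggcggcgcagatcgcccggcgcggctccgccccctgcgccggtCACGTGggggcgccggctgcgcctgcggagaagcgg
EIF4A3: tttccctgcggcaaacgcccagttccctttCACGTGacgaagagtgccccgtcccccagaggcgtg

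In eIF3, the large scaffold on the small ribosomal subunit, 7 of the 13 genes other than EIF3CL fell and 6 were not called. That share was 53.8%, against 17.1% of all genes called lower and 38.2% of those with at least 100 CPM. EIF3M measured 1069, 1037 and 1050 CPM in control and 861, 897 and 871 CPM in 4HC. Its log2 fold change was -0.26 (standard error 0.030, edgeR adjusted p = 2.54e-10). EIF3B, which holds the subunits of the core together, measured 413, 422 and 405 CPM in control and 354, 339 and 342 CPM in 4HC, and its log2 fold change was -0.26 (standard error 0.032, edgeR adjusted p = 4.22e-09). EIF3J, a loosely bound subunit, measured 125, 116 and 127 CPM in control and 99.5, 108 and 105 CPM in 4HC, with a log2 fold change of -0.24 (standard error 0.042, edgeR adjusted p = 6.63e-06). In all 3 genes every 4HC sample was below every control. By the deposited positions EIF3M overlapped CCDC73, EIF3B overlapped SNX8 and EIF3J overlapped SPG11, and the strand setting of the counting was not given in the sources used here. The same limit holds for other called members that overlapped a gene. Among them were EIF1AD (BANF1), EEF1G (TUT1), EIF3A (NANOS1), EIF3C (NPIPB8), EIF3G (P2RY11), EIF5B (REV1) and GSPT1 (LOC100652777). By the same positions LOC100652777 also overlapped EEF2KMT, which lies far from GSPT1 on chromosome 16. Its deposited interval may therefore be faulty, and the overlap with GSPT1 is doubtful.

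The subunits of eIF3 did not move as 1 group. EIF3A, the largest subunit, fell by 9.85% (edgeR adjusted p = 0.000126). EIF3C, EIF3E and EIF3G had log2 fold changes of -0.11, -0.08 and -0.13, all called, and each call was lost without some samples. EIF3D, EIF3F, EIF3H, EIF3I, EIF3K and EIF3L were not called, and their log2 fold changes lay between -0.06 and 0.04. EIF3K and EIF3F had groups that did not overlap, with 4HC above control by 2.76% and 2.02%. The call of EIF3C was lost without 4HC replicate 2 (log2 fold change -0.09, edgeR adjusted p = 0.0612). That of EIF3G was lost without control replicate 2 and without 4HC replicate 2, with log2 fold changes of -0.08 and -0.06 and edgeR adjusted p-values of 0.221 and 0.393. EIF3G also lost the call with DESeq2 (adjusted p = 0.309), with library size alone (0.0604) and with limma on TPM or FPKM (0.12 to 0.222). EIF3E lost its call without 5 of the 6 samples taken out in turn, the exception being 4HC replicate 2, with edgeR adjusted p-values of 0.0534 to 0.101. With limma on log2(FPKM + 1) neither EIF3C (adjusted p = 0.0737) nor EIF3E (0.103) was called, and EIF3E was not called with library size alone (0.114). EIF3CL, a near-identical copy of EIF3C, had 2.28, 4 and 1.87 CPM in control and 0.483, 4.5 and 7.41 CPM in 4HC. Reads can be divided between these copies, so the value of EIF3CL is uncertain, and with the copies summed 28 members were lower and 4 higher.

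All 3 subunit genes of eIF2 fell. The 5 genes of its exchange factor eIF2B were not called, and the difference between the complexes was not tested. Of all genes 17.1% were called lower, and of those with at least 100 CPM 38.2%. EIF2S1, the subunit that stress kinases phosphorylate, measured 220, 223 and 228 CPM in control and 208, 211 and 205 CPM in 4HC. Its log2 fold change was -0.11 (standard error 0.035, edgeR adjusted p = 0.0135). Without control replicate 3 the edgeR adjusted p of EIF2S1 was 0.0787, and without 4HC replicate 3 it was 0.0551, and with limma on log2(FPKM + 1) it was 0.0779. EIF2S2 fell by 11.0% (edgeR adjusted p = 0.000116). EIF2S3 fell by 5.23% (edgeR adjusted p = 0.0436), and its call was lost without control replicate 1 or 3 and without 4HC replicate 1 or 3, at edgeR adjusted p-values of 0.0562 to 0.168. It was also lost with library size alone (0.138) and with limma on TPM or FPKM (0.0589 to 0.177). In eIF2B the log2 fold changes ran from -0.12 for EIF2B4 to 0.02 for EIF2B5, 4 of the 5 were below 0, and only EIF2B4 had groups that did not overlap. EIF2B4 had a larger decrease than EIF2S1 and EIF2S3, but at 40.8 CPM in control its standard error was 0.056. EIF2A and EIF2D, which can deliver the initiator tRNA outside the eIF2 route, went in opposite directions. EIF2A fell by 10.5% (edgeR adjusted p = 0.00123), and EIF2D had 61.4 ± 0.593 CPM in control and 66.3 ± 0.587 in 4HC (SD, n = 3; edgeR adjusted p = 0.0539, not called).

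Of the factors for start site selection and subunit joining, EIF5, the GTPase activator of eIF2, fell by 7.83% (edgeR adjusted p = 0.004), and EIF1AX fell by 10.5% (edgeR adjusted p = 0.000185). EIF5B, the GTPase for subunit joining, had a log2 fold change of -0.095 and overlapping groups (edgeR adjusted p = 0.0391). The call of EIF5B was lost without control replicate 1 or 3 and without 4HC replicate 1 or 3, at edgeR adjusted p-values of 0.063 to 0.21. With DESeq2, library size alone or limma the adjusted p of EIF5B was 0.0503 to 0.22. EIF1 and EIF1B were not called. EIF1AD, a gene related to eIF1A in sequence, rose from 36.6 ± 0.647 to 40.7 ± 0.657 CPM (edgeR adjusted p = 0.0276). Its call was lost without control replicate 2 or 3 and without 4HC replicate 1 or 2, at edgeR adjusted p-values of 0.061 to 0.0943. It was also lost with DESeq2 (adjusted p = 0.127) and with limma on TPM or FPKM, where the log2 fold change of EIF1AD was 0.09 to 0.11 (adjusted p = 0.101 to 0.206) against 0.15 here. EIF6, which keeps the large subunit from joining too early, measured 124, 132 and 126 CPM in control and 133, 136 and 129 CPM in 4HC. These groups overlapped, and the log2 fold change of 0.06 (standard error 0.039) was not called (edgeR adjusted p = 0.238).

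No gene of eEF1A, eEF1B or eEF2 was called lower. EEF1A1, the most abundant member, measured 20362, 19790 and 20464 CPM in control and 19924, 20273 and 20778 CPM in 4HC. Its log2 fold change was 0.01, with a 95% interval of -0.045 to 0.062 and an edgeR adjusted p of 0.836, and the sign turned negative without control replicate 2 (-0.007) and without 4HC replicate 3 (-0.008). EEF1A2, the muscle and neuron form, measured 312, 320 and 299 CPM in control and 348, 324 and 313 CPM in 4HC, with overlapping groups and a log2 fold change of 0.08 (standard error 0.036, edgeR adjusted p = 0.063). EEF2 measured 4738, 5019 and 4799 CPM in control and 5109, 4967 and 4913 CPM in 4HC. That difference of 2.97% was not called (edgeR adjusted p = 0.251), and neither was that of EEF2K, the kinase that inactivates eEF2, with 30.3, 31.3 and 31.0 CPM in control and 31.7, 28.7 and 29.6 CPM in 4HC (edgeR adjusted p = 0.627).

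The subunits of eEF1B differed among themselves. EEF1D, a nucleotide exchange subunit, rose from 335 ± 16 to 370 ± 9.19 CPM, by 10.2% (edgeR adjusted p = 0.000923). EEF1G, its structural subunit, rose from 2416 ± 12.3 to 2556 ± 37.8 CPM, by 5.80% (edgeR adjusted p = 0.0183). EEF1B2, the other exchange subunit, had 439 ± 8.42 CPM in control and 443 ± 12.6 in 4HC and was not called. The call of EEF1G was lost without control replicate 1, without control replicate 3 and without 4HC replicate 2, at edgeR adjusted p-values of 0.0562 to 0.106, and with limma on TPM at 0.054 and 0.0549. EEF1E1, which is named for eEF1 but belongs to the multi-tRNA synthetase complex, fell from 41.6 ± 1.25 to 37.5 ± 0.631 CPM (edgeR adjusted p = 0.0285). The EEF1E1 call was lost without control replicate 1 or 3 and without 4HC replicate 1 or 3, at edgeR adjusted p-values of 0.0539 to 0.115, with DESeq2 at 0.0947 and with library size alone at 0.062.

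EIF5A, named as an initiation factor but active in elongation, was an exception among the abundant elongation genes. It measured 828, 878 and 852 CPM in control and 738, 724 and 715 CPM in 4HC, with a log2 fold change of -0.23 (standard error 0.031, edgeR adjusted p = 1.4e-08). No 4HC sample reached the lowest control. EIF5A2 measured 12.3, 12 and 11.9 CPM in control and 10.2, 11.1 and 11.1 CPM in 4HC, and its log2 fold change of -0.16 (standard error 0.094) was not called (edgeR adjusted p = 0.197). The interval of EIF5A2, from -0.345 to 0.032, includes the value of EIF5A.

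Of the 6 genes for methyltransferases of eEF1A and eEF2, 3 fell and all 6 log2 fold changes were below 0. EEF2KMT, which methylates eEF2, had the largest decrease of any member. It measured 34.9, 35.8 and 36.8 CPM in control and 31.0, 27.6 and 27.2 CPM in 4HC, with a log2 fold change of -0.33 (standard error 0.061, edgeR adjusted p = 2.37e-05). Its reads may be shared with near-identical copies of the FAM86 family, and by the deposited positions it overlapped ALG1. EEF1AKMT3 measured 14.2, 14 and 14.8 CPM in control and 11.2, 11.7 and 13.9 CPM in 4HC, with a log2 fold change of -0.23 (standard error 0.091, edgeR adjusted p = 0.047). Its call was lost when any sample except 4HC replicate 3 was left out, at edgeR adjusted p-values of 0.0626 to 0.196, and with DESeq2, library size alone or limma at 0.0633 to 0.168. EEF1AKMT2 was called at an edgeR adjusted p of 0.0476 with overlapping groups, and lost the call without control replicate 1 or 3 and without 4HC replicate 1 or 2, at 0.103 to 0.175. With DESeq2, library size alone, no filter or limma the adjusted p of EEF1AKMT2 was 0.0528 to 0.151.

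Both main release factor genes fell. ETF1, which encodes eRF1 and reads the stop codon, measured 345, 343 and 353 CPM in control and 307, 309 and 320 CPM in 4HC. Its log2 fold change was -0.15 (standard error 0.033, edgeR adjusted p = 0.00017). GSPT1, which encodes the GTPase eRF3a, measured 291, 287 and 295 CPM in control and 241, 244 and 244 CPM in 4HC, and its log2 fold change was -0.26 (standard error 0.033, edgeR adjusted p = 9.24e-09). Neither gene had overlapping groups, and the spread of GSPT1 within 4HC was 1.68 CPM (SD, n = 3). GSPT2, the paralog of GSPT1, measured 0.863, 0.677 and 0.905 CPM in control and 0.543, 0.987 and 0.551 CPM in 4HC, and a change of the size seen for GSPT1 was not detectable at this depth (95% interval of the log2 fold change -0.935 to 0.467).

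Per length, the factors covered a wide range of levels. In control, EEF1A1 had 9802 TPM, EEF1G 3265, EEF2 2644, EIF5A 1351 and EEF1B2 1311, and 35 members had at least 100 TPM. Of the initiation genes EIF4A1 (1073 TPM) and EIF3M (1071 TPM) were the highest, and their difference was within the spread between samples. ETF1 was the highest release factor at 160 TPM. The 13 subunit genes of eIF3 without EIF3CL ran from 52.4 TPM for EIF3F to 1071 TPM for EIF3M, a ratio of 20.5, those of eIF2B from 17.1 to 56.4 TPM and those of the 3 eIF2 subunits from 90.5 to 351 TPM. Subunits of these complexes thus had unequal transcript levels on the authors' length scaling.

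The ratios of 3 further paralog pairs in TPM overlapped between the groups. EEF1A1 over EEF1A2 was 30 ± 1.52 in control and 28.6 ± 2.08 in 4HC, EIF5A over EIF5A2 was 377 ± 15.6 and 357 ± 23.4, and GSPT1 over GSPT2 was 132 ± 19.6 and 138 ± 41.7 (SD, n = 3). EIF4G1 over EIF4G3, a pair chosen after its values were seen, did separate the groups, with 4.85, 5.09 and 4.85 in control and 4.74, 4.57 and 4.36 in 4HC. An exact permutation test of 3 samples against 3 cannot give a p below 0.1, so no test was made of single ratios and sums.

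Summed over genes, the 4HC samples were below the controls in initiation and termination, and overlapped with them in elongation. The summed TPM of the 49 initiation genes was 9754, 9706 and 9897 in control and 9088, 8918 and 9053 in 4HC, a decrease of 7.83% without overlap. For the 17 elongation genes it was 19619, 19447 and 19736 in control and 19715, 19537 and 19817 in 4HC, which overlapped. Among complexes, the sum of the eIF4F group was 2411 ± 21.5 TPM in control and 2076 ± 15.4 in 4HC, of which EIF4G2 gave 529 and 457. The sum of eIF3 was 4299 ± 45.8 and 3980 ± 68.8, and that of the release factors 227 ± 4.97 and 198 ± 3.21 (SD, n = 3). All 3 sums were without overlap. The eEF1 sum was 15466 ± 219 and 15716 ± 168 TPM, with the lowest 4HC sample at 15611 TPM and the highest control at 15605 TPM, and that of eIF2B, 192 ± 3.27 and 185 ± 6.06 TPM, overlapped. Sums of this kind follow their most abundant genes, and EEF1A1 alone made up most of the eEF1 sum. It also gave 9802 of the 19601 TPM of the elongation sum in control (means).

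**Figure D3:**
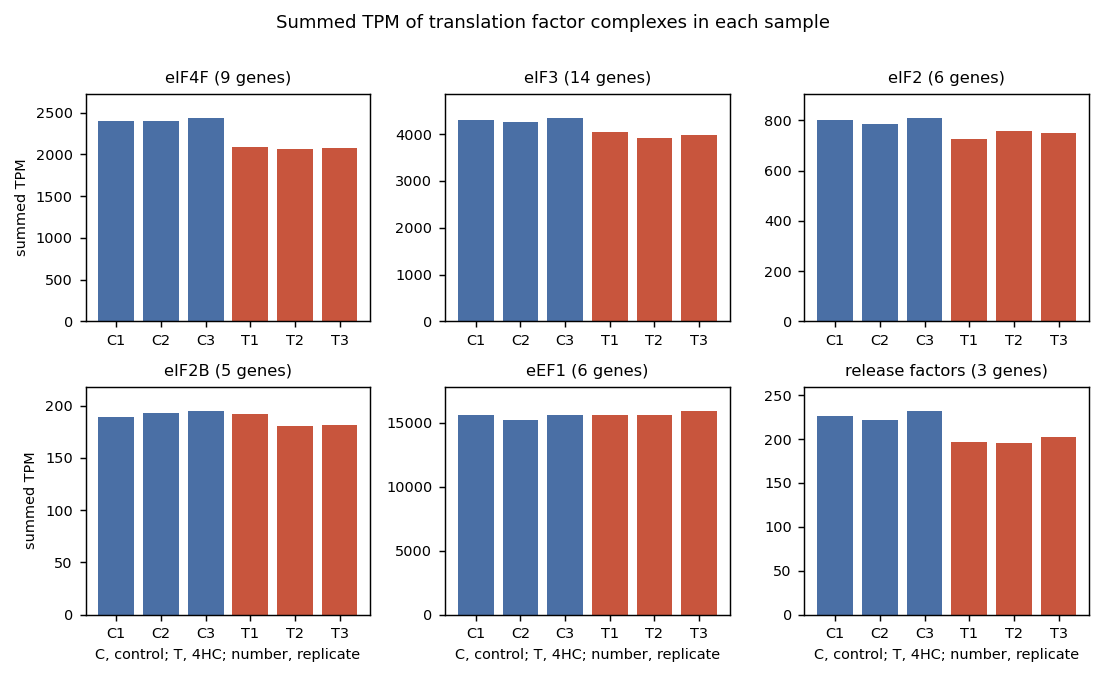
Summed TPM of 6 factor groups in each of the 6 samples, with axes that start at 0. Blue bars are control samples C1 to C3 and red bars 4HC samples T1 to T3, and the number of genes is in each title. The eIF4F, eIF3, eIF2 and release factor sums are lower in every 4HC sample, and those of eIF2B overlap. The eIF4F group includes EIF4G2.

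Many mRNAs of the translation machinery begin with a C followed by pyrimidines, a 5′ terminal oligopyrimidine (TOP) motif through which mTOR and LARP1 control their translation. Of 9 members listed as TOP mRNAs from background knowledge, 2 rose (EEF1D and EEF1G), 1 fell (EIF3E) and 6 were not called, with a median log2 fold change of 0.01. In the RefSeq windows, a C at the annotated start followed by at least 4 bases that were each C or T was found in 13 of 75 windows of members (17.3%) and in 4.07% of all 35116 windows. Only the strand of the gene was searched. The 13 tested members with such a start had a median log2 fold change of 0.01, with 4 lower and none higher. The 39 tested members without it had a median of -0.11, with 18 lower and 3 higher. This set is not the listed TOP set. EEF1G, listed as a TOP mRNA, had no such start and is counted among those without it, and EEF1D, EIF3E and EIF3H had no window. Annotated starts need not be the starts used in these cells.

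The start windows are shown because members with this start include both the abundant factors that were not called and some that fell. Each runs from 10 bases before to 30 bases after the annotated start on the strand of the gene (GRCh38.p14), and capitals mark the pyrimidine run from the first transcribed base. EEF1A1 (chr6:73521003-73521042, minus strand), EEF2 (chr19:3985434-3985473, minus strand), EEF1B2 (chr2:206159885-206159924, plus strand), EIF3F (chr11:7987327-7987366, plus strand) and EIF4B (chr12:53006446-53006485, plus strand) were not called.
EEF1A1: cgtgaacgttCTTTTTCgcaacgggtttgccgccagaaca
EEF2: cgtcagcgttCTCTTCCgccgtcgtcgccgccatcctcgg
EEF1B2: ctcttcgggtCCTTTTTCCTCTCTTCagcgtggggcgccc
EIF3F: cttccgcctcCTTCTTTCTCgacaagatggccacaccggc
EIF4B: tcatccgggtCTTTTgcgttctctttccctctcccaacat

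The 4 members with this start that fell were EIF3M (chr11:32583821-32583860, plus strand), EIF4A2 (chr3:186783567-186783606, plus strand), EIF2A (chr3:150546777-150546816, plus strand) and EIF2S3 (chrX:24054946-24054985, plus strand). Their runs were 7, 6, 8 and 7 bases long, and those of the uncalled genes above were 5 to 16 bases long. EIF2S3B, a copy of EIF2S3 at chr12:10505880-10505919 (plus strand), has the same run. It had 4.15 ± 0.821 CPM in control and 4.46 ± 0.252 in 4HC, and its reads and those of EIF2S3 may be divided between the copies.
EIF3M: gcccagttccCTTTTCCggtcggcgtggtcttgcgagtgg
EIF4A2: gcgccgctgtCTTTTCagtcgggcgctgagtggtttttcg
EIF2A: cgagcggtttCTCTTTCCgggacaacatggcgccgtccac
EIF2S3: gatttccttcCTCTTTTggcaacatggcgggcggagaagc
EIF2S3B: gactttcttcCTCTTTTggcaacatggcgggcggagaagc

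At the level of transcripts, 302 were listed for the members, and for 34 of the 65 tested genes 1 transcript had at least 90% of the gene's expected counts in control. The share of the leading transcript separated the groups in 3 of the 65 tested genes, and many of the 65 had a single listed transcript. Separation of 3 samples from 3 can arise by order alone, and no count over all genes was taken. These 3 are therefore not read as a result. The share was 92.5% in control and 94.2% in 4HC for EIF3C, 99.6% and 99.9% for EIF4A1, and 66.7% and 69.1% for EIF4H, all small shifts. In EIF1AD, chosen after its values were seen, the second transcript had 22.1%, 19.8% and 20.4% of the counts in control and 12.8%, 13.5% and 12% in 4HC. The third transcript of EIF1AD had 12.1%, 17.8% and 16.1% in control and 24.2%, 18.2% and 19.6% in 4HC. The program divided reads between overlapping transcripts by estimation, so these shares are less certain than the gene values, and no test was made.

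Of 37 other genes that act with the factors, all tested, 11 fell and 3 rose (29.7% and 8.11%), against 17.1% and 19.2% of all genes. Called in either direction were 37.8% of them, close to the 36.4% of all genes. ABCE1, which splits ribosomes after termination, measured 347, 330 and 341 CPM in control and 267, 286 and 277 CPM in 4HC, and its log2 fold change was -0.29 (standard error 0.034, edgeR adjusted p = 5.45e-10). It was the only one of 8 recycling and non-canonical initiation genes that was called. DPH2, of the enzyme that begins diphthamide synthesis on eEF2, measured 49.3, 49.6 and 48.9 CPM in control and 37.0, 33.7 and 34.5 CPM in 4HC. At -0.49 (standard error 0.055, edgeR adjusted p = 1.88e-10) its log2 fold change was larger in size than that of any factor gene that fell. In all, 3 of the 7 diphthamide genes fell (42.9%, against 17.1% of all genes), the others besides DPH2 being DPH3 and DPH5. The hypusine enzymes DHPS and DOHH, which modify eIF5A, and the genes N6AMT1 and TRMT112, whose products methylate eRF1, were not called.

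Of the 10 genes for poly(A) binding proteins and helicase cofactors 5 fell, among them LARP1 (log2 fold change -0.20), LARP4 (-0.19) and DDX3X (-0.14), each with an edgeR adjusted p of at most 0.000273. PDCD4, which holds eIF4A inactive, rose by 0.19 on the log2 scale, with 62.6 ± 2.30 CPM in control and 71.5 ± 2.56 in 4HC (edgeR adjusted p = 0.00104). Of the 4 MNK and S6 kinase genes RPS6KB1 fell (log2 fold change -0.19), whereas RPS6KB2 (0.17) and MKNK2 (0.12) rose. Among the 4 genes of selenocysteine elongation SECISBP2 fell from 45.2 ± 1.32 to 37.0 ± 2.37 CPM (edgeR adjusted p = 4.34e-05), and EEFSEC, PSTK and SEPSECS were not called.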

How the data were processed

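Bulk RNA-seq of 6 COV434 samples was analysed. The authors filtered reads with SOAPnuke, and the submitters' processing notes name HISAT2, Bowtie2, RSEM 1.3.1, DESeq2 1.4.5 and the build GRCh38.p13. The authors deposited expected counts per gene and transcript without normalization, and 85.5% of those of genes were whole. The deposited TPM and FPKM values were scaled by the authors to length and depth. The authors' columns of log2 fold change, p-value and q-value were not used. Strand in the gene table differed from RefSeq for 13 of 56 members, so no gene position was printed from it.

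Expected counts were rounded and fitted over all genes with edgeR 4.0.16 in R 4.3.3 (TMM, filterByExpr, quasi-likelihood test, condition as the only term), and p-values were adjusted by Benjamini-Hochberg over 12368 genes. At 0 counts a sample may still hold up to 3 counts, a limit for counting error only. The scripts were first tested on simulated data. Replicates of a group differed by more than sampling noise (chi-square per gene between 1.7 and 2.46), and the source of this excess was not tested. In edgeR the biological coefficient of variation, the spread within groups beyond counting noise, was only 0.0277. Low p-values for small changes rest on this small spread, which need not hold for separate cultures.

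Members, lists, windows and motifs were chosen with earlier results of these data known. Values in every sample were given for the 12 called members with the largest change without overlap and at least 5 CPM, the most abundant member of each class, paralog pairs and a fixed list of regulators. In the other lists up to 3 called genes were to be named. PDCD4, uncalled members and genes, the pair EIF4G1 and EIF4G3, and genes with changed transcript shares were also named after their values were seen. Alternatives were DESeq2 1.42.0, its size factors within edgeR, library size, other filters, the replicate number as a block, limma 3.58.1 on log2(TPM + 1), log2(TPM + 0.1) or log2(FPKM + 1), near-identical copies summed, the fold change threshold, and each sample left out in turn. Python 3.11.15, pandas 2.3.3 and matplotlib 3.10.9 were used.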

Additional observations from a re-analysis of the deposited data

How the results depend on the processing

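The 28 members called lower numbered between 19 and 29 under the other models, scalings, filters and units, and the 4 called higher between 2 and 6. Those called higher were 2 with limma on log2(TPM + 1) and 2 on log2(TPM + 0.1). With each sample left out in turn, 21 to 25 members were lower and 2 to 5 higher. The 2 came without control replicate 3 and without 4HC replicate 2. At a minimum 2-fold change with unadjusted p under 0.05, 0 members were called lower, 0 higher and 0 in either direction. Of the 32 called members, 20 kept the call under all 16 alternatives (18 lower, and EEF1D and EIF4EBP2 higher), and none changed sign. Over all genes, DESeq2 called 3234 of 11579.

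Signs turned for 7 of the 33 uncalled members. EIF3D had a log2 fold change of 0.006 with library size alone and 0.004 on log2(FPKM + 1), EIF4B 0.003 and 0.002, and EIF1B -0.002 on both TPM scales. With 1 sample left out, the range was -0.008 to 0.018 for EEF1A1, -0.009 to 0.029 for EEF1B2, -0.017 to 0.028 for EIF1B, -0.047 to 0.234 for EIF2S3B and -0.132 to 1.128 for EIF3CL. The cause was not tested. Of the uncalled members 7 were called in some alternative. EIF1 was lower with DESeq2's size factors, at least 10 counts in every sample, without control replicate 1 and without 4HC replicate 1 (adjusted p = 0.0251 to 0.0496), and EIF2B4 (0.0408) and EEF1AKMT1 (0.0395) were lower without 4HC replicate 1. EEF1A2 was higher with library size alone, without control replicate 2 and without 4HC replicate 3 (0.0138 to 0.0319), EIF2D with library size alone and on log2(FPKM + 1) (0.0215 and 0.0176), and EIF4EBP1 on log2(FPKM + 1) (0.0492). EIF3CL was higher with no filter (0.0191), without control replicate 2 (0.03) and without 4HC replicate 1 (2.05e-05). EIF3CL and GSPT2 gave no value under 2 alternatives.

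The labels do not say whether same-numbered samples were paired. Their deviations from the group means correlated at 0.009, 0.069 and 0.03, and those of differently numbered samples at -0.08 to 0.045. Values this small cannot decide whether a pairing existed. With the replicate block 23 members were lower and 4 higher, and EEF1AKMT2, EEF1AKMT3, EIF2S3, EIF3G and EIF5B lost the call. EIF3CL, EIF4E3, EIF2S3B and GSPT2 were all below 8 CPM, and the reads of EIF3CL and EIF2S3B may be divided with near-identical copies.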
